A study of Mus musculus with 4 samples.

Results

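Myc, Mycn, Id1, Id2, Id3, Stat3, Socs3, Lifr, Axin2 and Spry4 are 10 genes that respond to LIF, to BMP, or to the inhibitors used to keep mouse embryonic stem cells undifferentiated. They were examined for METTL3 on the DNA around them. METTL3 is the catalytic subunit of the enzyme that writes N6-methyladenosine on RNA, and it was mapped by ChIP-seq, in which fixed chromatin is pulled down with an antibody and its DNA sequenced. The genes were chosen by name, from 21887 protein-coding genes on the mouse chromosomes. Every peak whose centre lay within 100 kb of the RefSeq body of one of them on mm10 was taken, which gave 4 of the 353 peaks of immunoprecipitation (IP) replicate 1 and 3 of the 281 peaks of replicate 2.

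The study asked where METTL3 binds DNA in these cells. All 4 libraries came from C57BL/6 mouse embryonic stem cells marked WT in the titles. They were grown in 15% FBS with LIF at 1000 U/ml, the GSK3 inhibitor CHIR99021 at 3 μM and the MEK inhibitor PD0325901 at 1 μM, and fixed with 1% formaldehyde. Of the libraries, 2 were IPs with a rabbit METTL3 antibody and 2 were inputs, sonicated chromatin taken without antibody. The medium was the same for every library, so the peaks show these loci in 1 condition, and no response to LIF, BMP or Wnt was measured. Whether the replicates were separate cultures is not stated in the labels. No control antibody and no cells without METTL3 were analysed here, and the peak lists hold no expression values against which the cell type could be checked.

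In mouse embryonic stem cells LIF binds the LIF receptor with its partner gp130, and Janus kinases then activate STAT3, which moves to the nucleus and switches on targets such as Socs3 and Myc. BMP ligands act through SMAD proteins to induce the Id genes, whose products block basic helix-loop-helix factors that drive differentiation. Inhibition of GSK3 mimics Wnt by stabilising beta-catenin, which induces Axin2, and inhibition of MEK lowers targets of FGF signalling such as Spry4.

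METTL3 peaks lay near 4 of the 10 genes, and none lay inside any of them. A peak inside the body or within 1 kb of it was rare over all protein-coding genes, at 0.681% in replicate 1 and 0.557% in replicate 2. Myc, Lifr and Id3 each had 1 peak at the same place in both replicates, and Spry4 had a low peak in replicate 1 alone. In replicate 1 the count was 4 of 10 genes, beside 4.16% of all protein-coding genes with a peak within 100 kb. In replicate 2 it was 3 of 10, beside 3.24%. A peak shared by both replicates, meaning an overlap of at least 1 bp, lay near 3 of 10, beside 2.25%, and a peak in either replicate lay near 4 of 10, beside 5.05%. The percentages over all protein-coding genes were not matched on gene length or on gene density. The genes were listed with earlier results of these data known, so the counts describe them and no test was made.

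**Figure D1:**
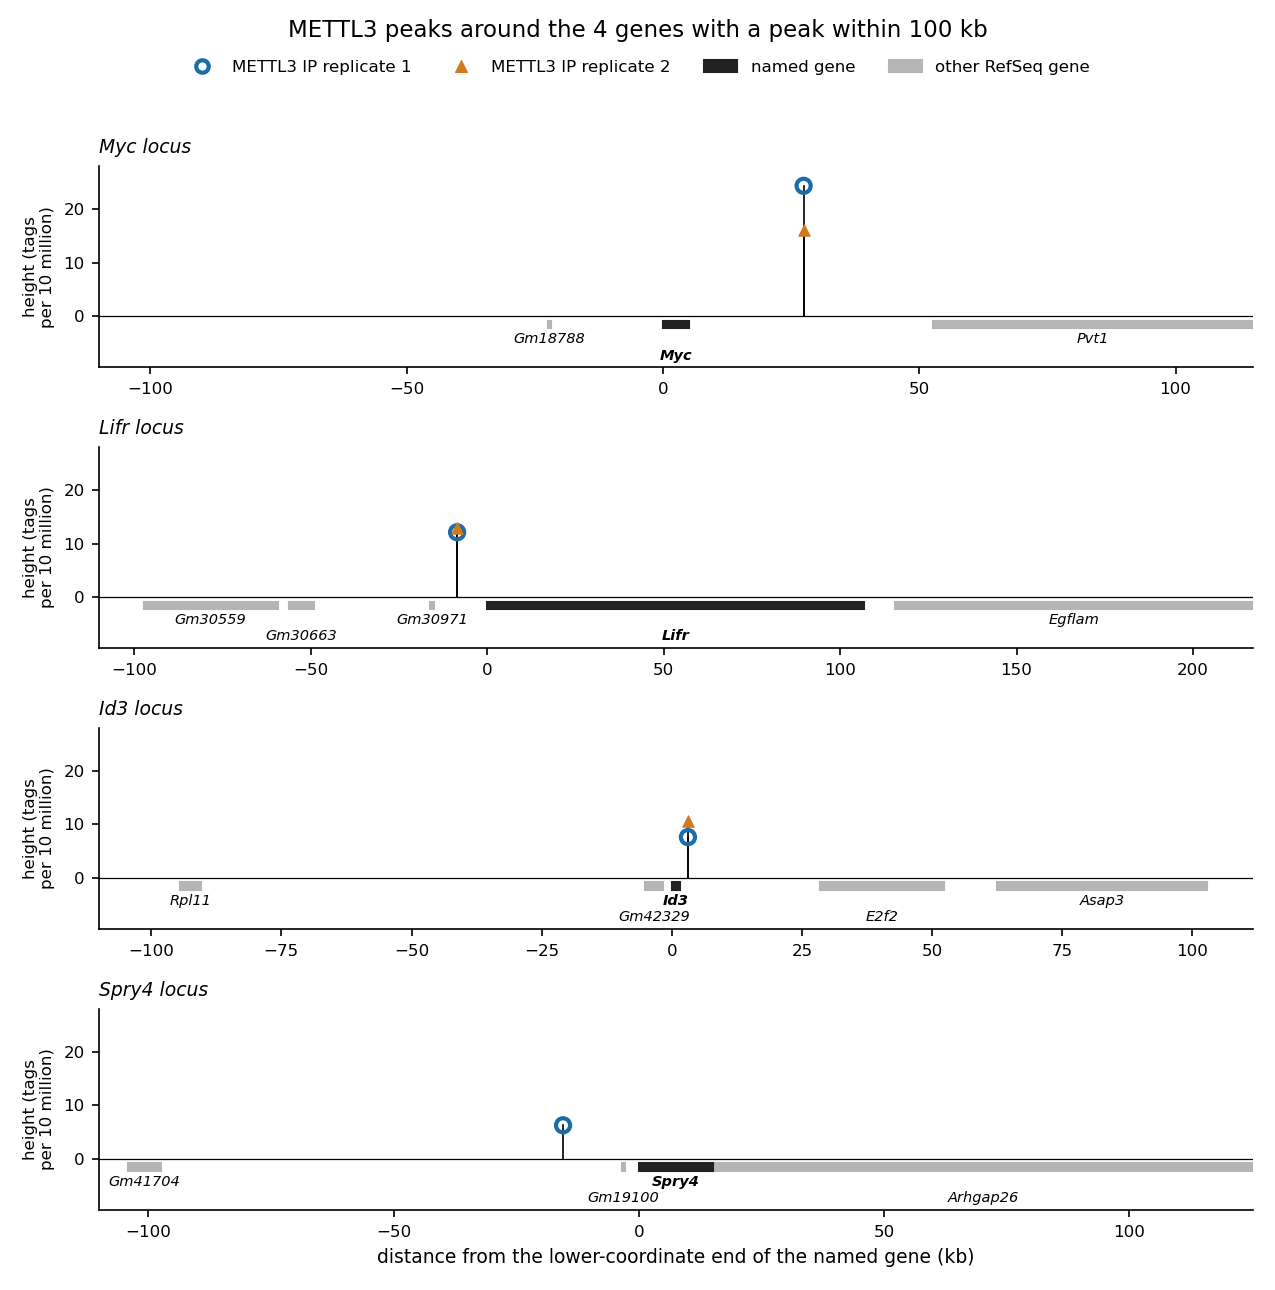
Height of each METTL3 peak (vertical axis, IP tags per 10000000 library tags) against its distance in kb from the lower-coordinate end of Myc, Lifr, Id3 or Spry4, with open circles for replicate 1, triangles for replicate 2, the named gene in black and other RefSeq genes in grey. The circle and the triangle stand at the same place at Myc, Lifr and Id3, and the Spry4 locus has a circle alone.

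Lifr encodes the receptor subunit that binds LIF, and its peak was the one that differed least between replicates. It lay at chr15:7081965-7082135 in replicate 1 and chr15:7081965-7082133 in replicate 2, with centres 1.00 bp apart. Its height was 12.1 in replicate 1 and 12.8 in replicate 2, in IP tags per 10000000 library tags, the unit of every height given here. The mean was 12.4 ± 0.495 (SD, n = 2), against 1.41 ± 0.858 in input on the same scale. Replicate 2 over replicate 1 was 1.06, with an exact 95% interval of 0.601 to 1.87 from the tags of both libraries, so no difference was detectable at this depth.

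The Lifr peak stood 8.56 kb before the RefSeq gene body, on the upstream side of a gene read on the plus strand. The body used here includes predicted transcripts. The nearer of the 2 Lifr start sites in the RefSeq promoter table lay 47.5 kb downstream of the peak. The closest annotated gene of any kind was the long non-coding RNA gene Gm30971, 6.42 kb away on the other side, and Lifr was the closest protein-coding gene. In tags, the peak held 27 IP and 2 input tags in replicate 1, and 28 IP and 3 input tags in replicate 2. That was 15.1-fold over input in replicate 1 (exact 95% interval 3.78 to 131) and 6.36-fold in replicate 2 (1.97 to 32.7). The wide intervals overlap and come from the few input tags. Every listed peak was called because its IP tags exceeded input and its surroundings. An excess over either was therefore fixed by selection, and the folds and intervals given here describe the peaks without testing enrichment.

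Stat3 encodes the transcription factor that LIF activates, and no METTL3 peak lay within 100 kb of it. Its nearest peak in both lists was a tall one 743 kb away on the upstream side, at chr11:101682125-101682295, with heights of 18.0 in replicate 1 and 17.0 in replicate 2. That peak ranked 32 of 353 and 29 of 281, and it was nearer to Arl4d, at 14.4 kb. Its tags were 8.92-fold over input in replicate 1 (exact 95% interval 3.52 to 29.0) and 4.20-fold in replicate 2 (1.76 to 12.2).

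Socs3 encodes the inhibitor that STAT3 induces and that shuts off LIF signalling. Like most protein-coding genes, it had no peak within 1000 kb (25.4% of them had one in replicate 1 and 22.7% in replicate 2). The nearest peak was 3646 kb away in replicate 1, with a height of 7.64, and 3212 kb away on the other side of the gene in replicate 2, with a height of 5.51. The second of these was the last of the 281 peaks of its list and was not shared.

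Myc encodes a transcription factor of growth and self-renewal that both STAT3 and beta-catenin activate, and the tallest peak near any of the 10 genes was beside it. The peak lay at chr15:62012697-62012867 in replicate 1 and chr15:62012729-62012897 in replicate 2. These intervals overlapped by 139 bp, and their centres were 31.0 bp apart. The peak stood in the gap between Myc, 22.4 kb away on the side of lower coordinates, and the long non-coding RNA gene Pvt1, 25.2 kb away on the other side. No other gene of the RefSeq table began or ended in that gap, and no other protein-coding gene lay within 100 kb of Myc.

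The height of the Myc peak was 24.3 in replicate 1 and 16.1 in replicate 2, for a mean of 20.2 ± 5.80 (SD, n = 2). Replicate 1 was the higher of the pair. Replicate 2 over replicate 1 was 0.650, with an exact 95% interval of 0.413 to 1.01. Input on the same scale was 0.740 ± 0.0941. The IP held 55 tags in replicate 1 against 2 input tags, and 35 in replicate 2 against 1. That was 30.7-fold over input (exact 95% interval 8.10 to 260) and 23.9-fold (4.01 to 969). Against the surrounding 10 kb of the IP library itself, which does not rest on input, the authors' fold was 24.63 in replicate 1 and 15.88 in replicate 2. By mean height the Myc peak ranked 22 of the 195 shared peaks, Lifr 67 and Id3 116.

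Mycn, a paralog of Myc with much the same role in these cells, had no peak within 1000 kb, like most protein-coding genes. Its nearest peak in replicate 1 was 1719 kb away, had a height of 6.29, lay 7.70 kb from Msgn1 and was not shared. In replicate 2 its nearest peak was 22701 kb away. All 10 peaks of chromosome 12 in replicate 2 lay on the side of Mycn with higher coordinates, as did 14 of the 16 in replicate 1. The lower-coordinate end of Mycn is at position 12936093, so more of the chromosome lies on the side with higher coordinates.

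**Figure D2:**
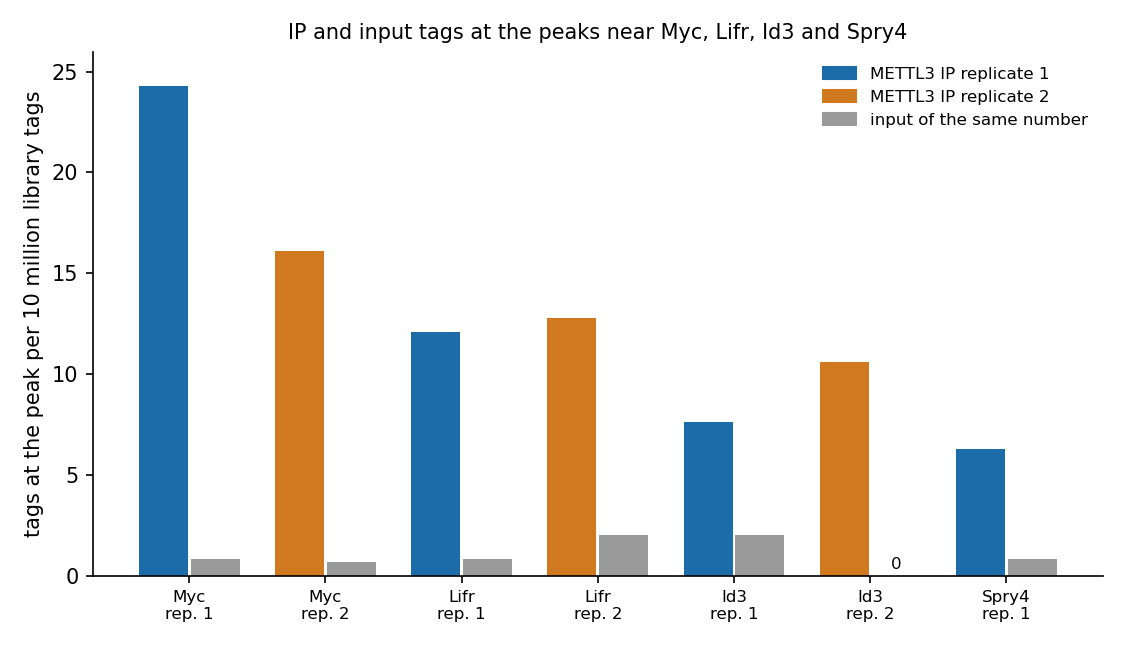
Tags at each peak per 10000000 tags of its library (vertical axis, from 0), in the METTL3 IP (coloured by replicate) and in the input of the same number (grey), for the peaks near Myc, Lifr, Id3 and Spry4. IP runs from 6.29 at Spry4 to 24.3 at Myc, input from 0 to 2.02, and Id3 has no input tag in replicate 2.

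Among the Id genes, the classical BMP targets, METTL3 had a peak beside Id3 and no peak within 100 kb of Id1 or Id2. The Id3 peak lay at chr4:136146846-136147016 in replicate 1 and chr4:136146874-136147042 in replicate 2, with an overlap of 143 bp. It stood 1.54 kb past the end of the gene in replicate 1 and 1.57 kb in replicate 2, on the downstream side of a gene read on the plus strand. The start of Id3 was 3.11 kb from the centre in replicate 1. E2f2, the next gene on that side, began 25.3 kb from it. This was the closest peak to the body of any of the 10 genes.

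The Id3 peak was modest in height, at 7.64 in the first replicate and 10.6 in the second, for a mean of 9.12 ± 2.09 (SD, n = 2). Replicate 2 over replicate 1 was 1.38, with an exact 95% interval of 0.706 to 2.75. Its fold over input rested on very different input counts. In replicate 1 there were 17 IP and 5 input tags, or 3.79-fold (exact 95% interval 1.34 to 13.1). In replicate 2 it held 23 IP tags, and input was 0. Counting input at the floor of 3 tags, IP was at least 5.23-fold higher with its own counting error left out, and the exact 95% interval began at 3.92. The ratio of the inputs themselves, 0 tags in the smaller library against 5 in the larger, had an exact 95% interval from 0 to 1.82, so no difference between them was detectable. Against its surroundings in the IP library the peak was 9.77-fold in replicate 1 and 11.03-fold in replicate 2 by the authors' values.

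Id1 had its nearest peak 431 kb away in both lists, inside Tm9sf4, which encodes a membrane protein of the transmembrane 9 family. That peak was shared, with heights of 8.54 in replicate 1 and 6.42 in replicate 2. Id2 had its nearest peak 10547 kb away in both lists, with heights of 5.84 and 9.64. That site was also the nearest to Mycn in replicate 2, since both genes lie on chromosome 12.

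Spry4 encodes a feedback inhibitor of FGF signalling whose expression follows MEK and ERK activity, and its peak was the lowest near any of these genes. The peak lay 15.4 kb from the gene at chr18:38570721-38570891, on the side of lower coordinates, with the pseudogene Gm19100 between them. It had a height of 6.29, with 14 IP and 2 input tags, or 7.81-fold over input (exact 95% interval 1.79 to 70.8). The threshold for a putative peak was 14 tags per the file headers. The caller's score, which is in a column of its own, was at least 14 in both lists and 15 at this peak, while the IP tags of listed peaks went down to 12. Of the 87 peaks of replicate 1 with no more than 14 IP tags, 16 were shared (18.4%, exact Clopper-Pearson 95% interval 10.9 to 28.1%), and of the 266 with more tags 179 were (67.3%, 61.3 to 72.9%). In replicate 2 the nearest peak to Spry4 was 2170 kb away, inside Pfdn1. The peak lists give no tag counts at places without a called peak, so the signal of replicate 2 at this site is not known.

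Axin2, a direct beta-catenin target whose product acts in the complex that degrades beta-catenin, had no peak within 1000 kb, like most protein-coding genes. The nearest was 3973 kb away in replicate 1, inside Gm11639, with a height of 9.44, and it was not shared. In replicate 2 it was 5370 kb away on the other side, with a height of 8.72. That second site was shared, and it was also the nearest shared peak to Socs3.

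Ranks in the deposited lists follow the order of height, in which ties are common among low peaks. Myc ranked 15 of 353 in replicate 1 and 31 of 281 in replicate 2, and 95.8% and 89.0% of the peaks of those lists were lower. Lifr ranked 74 and 59, with 78.2% and 77.9% lower. Id3 ranked 189 and 93, with 41.4% and 64.4% lower, so it was below the median of 8.09 in replicate 1 and above the median of 8.72 in replicate 2. Spry4 ranked 307 in replicate 1, with 11.9% lower. Myc, Lifr and Id3 stood in that order in both replicates. For the neighbouring pair Lifr and Id3 the means were 12.4 and 9.12, with 2 replicates each. Their IP tags were 27 and 17 in replicate 1, and 28 and 23 in replicate 2. Whether the heights of this pair differ was not tested.

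**Figure D3:**
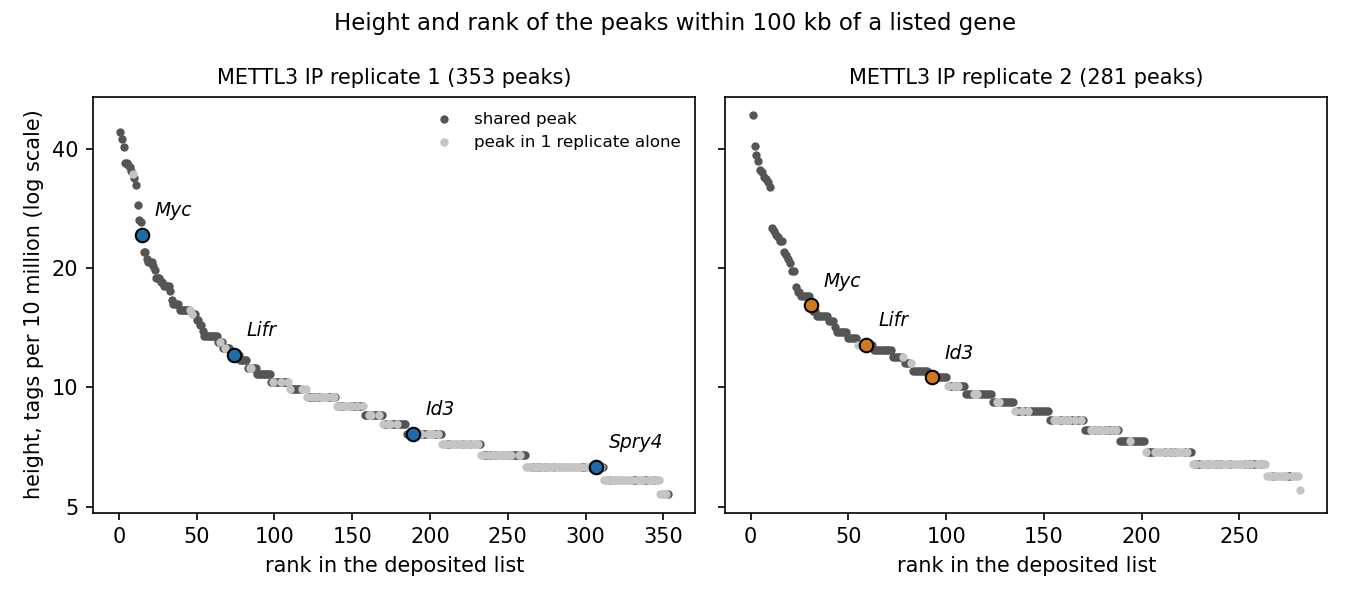
Height of every METTL3 peak (vertical axis, IP tags per 10000000, log scale) against its rank in the deposited list, replicate 1 on the left and replicate 2 on the right, with shared peaks in dark grey and others in light grey. Myc stands at 15 and 31, Lifr at 74 and 59 and Id3 at 189 and 93, while Spry4 stands at 307 in replicate 1 among mostly unshared peaks.

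The focus ratio, the share of tags that lie on the strand side expected for a fragment centred on the peak, was much the same at all of these sites. It was 82.9% and 91.4% at Myc, 83.7% and 87.5% at Lifr, 88.0% and 83.3% at Id3, and 88.9% at Spry4. The medians over the lists were 81.5% in replicate 1 and 81.8% in replicate 2, and each of the 7 values was above the median of its list. The shift between replicates was 31.0 bp at Myc, 27.0 bp at Id3 and 1.00 bp at Lifr, beside a median of 27.0 bp over the 195 shared peaks. The log2 ratio of heights, replicate 2 over replicate 1, was -0.59 at Myc, 0.47 at Id3 and 0.08 at Lifr, beside a median of 0.03 and an SD of 0.36 over the shared peaks.

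None of the peaks fell on a promoter of the 10 genes. RefSeq promoter windows, from 250 bases before a start to 50 after it, were at hand for 7 of them (8 windows), and no peak of either replicate overlapped one. Over every gene with such a window, few peaks of the whole lists overlapped one, 6 in replicate 1 and 3 in replicate 2. Genes without a window are left out of those counts. Myc, Id1 and Spry4 had no window, so their upstream and downstream sides are given as lower and higher coordinates.

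With distance, the count of genes with a shared peak rose in steps. Shared peaks lay within 10 kb of 2 of the 10 genes, Id3 and Lifr, beside 0.576% of protein-coding genes. Within 20 kb there were the same 2 genes, beside 0.790%. Within 50 kb Myc joined them, beside 1.34%, and within 200 kb no further gene did, beside 3.89%. Within 1000 kb (a window added once the data had been looked at), there were 5 genes, with Id1 and Stat3 added, beside 15.8%. Over all protein-coding genes, the median distance to the nearest peak was 2656 kb in replicate 1 and 3223 kb in replicate 2. Among the 10 genes, 7 lay below that median in each replicate. Axin2 and Id2 were above it in both replicates, Socs3 in replicate 1 and Mycn in replicate 2. With the authors' fold over input of at least 8, Myc was the only one of the 10 genes with a shared peak within 100 kb, beside 1.00% of protein-coding genes under the same minimum.

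**Figure D4:**
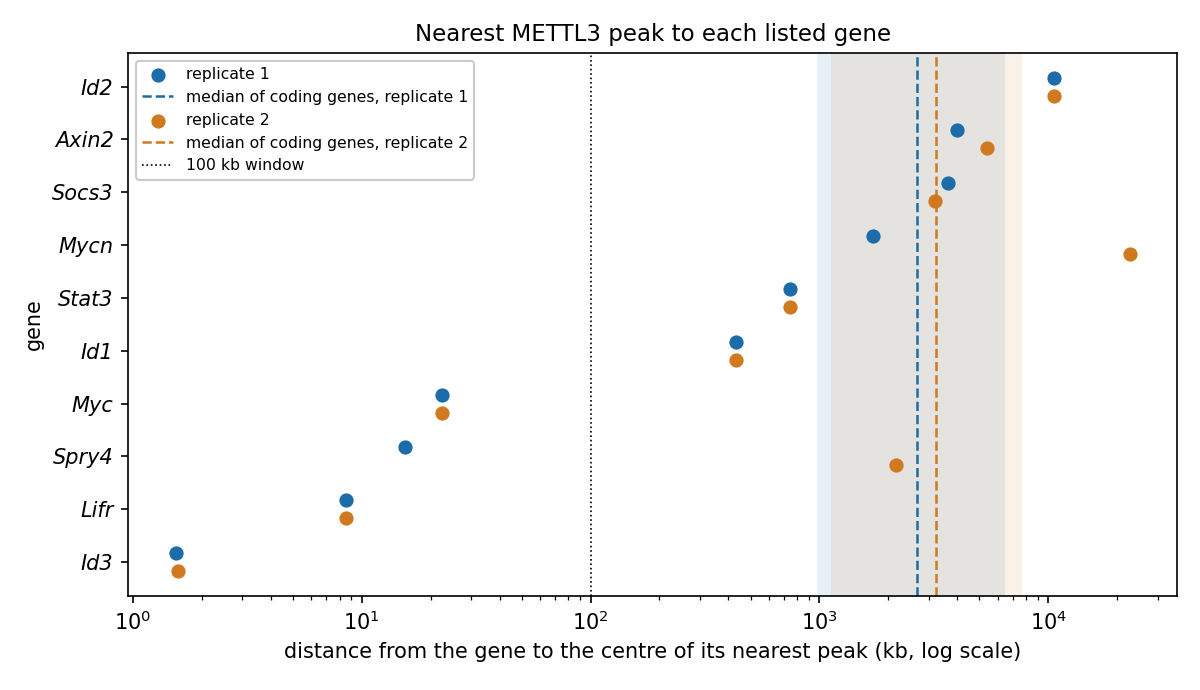
Distance from each of the 10 genes to the centre of its nearest METTL3 peak (horizontal axis, kb, log scale), in replicate 1 (blue) and replicate 2 (orange). Dashed lines are the medians over all protein-coding genes (2656 and 3223 kb), the shading their middle quartiles, and the dotted line 100 kb. Id3, Lifr and Myc lie left of the dotted line in both replicates and Spry4 in replicate 1 alone.

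Other genes of the same pathways were taken from 5 lists of 116 genes in all, none of them among the 10. In replicate 1, 8 of the 116 (6.90%) had a peak within 100 kb, and 8 (6.90%) did in replicate 2. A shared peak lay near 5 (4.31%). These are to be read beside the 4.16%, 3.24% and 2.25% of all protein-coding genes given above. The lists of ligands, receptors and targets were made with earlier results known, and Klf4 and Tfcp2l1 were among the genes with a peak in those results. Both are counted in the 6.90%, 6.90% and 4.31%. These shares are raised by genes known beforehand to have a peak, and no result about the pathways is drawn from them.

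In the LIF and STAT3 list, 2 of 24 genes (8.33%, beside 2.25% of all protein-coding genes) had a shared peak. They were Klf4 and Tfcp2l1, a pair of naive pluripotency factor genes that STAT3 activates. Both were known beforehand to have a peak, so the 8.33% follows from their being listed and is no result about the pathway. Klf4 had 4 peaks in replicate 1, of which 3 were shared, at 49.6, 51.6 and 62.6 kb on its downstream side, with heights of 7.95 ± 0.205, 12.5 ± 0.141 and 9.77 ± 0.467 (SD, n = 2). The other, 11.1 kb downstream and so the nearest to the gene, had a height of 9.44 with 21 IP and 2 input tags and was in replicate 1 alone. Tfcp2l1 had one 2.29 kb upstream, of 9.08 ± 0.509. No ligand, receptor, kinase or SOCS gene of that list had a peak within 100 kb, and among the LIF receptor genes Lifr and Il6st, which encodes gp130, the peak was at Lifr.

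In the BMP and SMAD list, 1 of 24 genes (4.17%, beside 2.25% of all protein-coding genes) had a shared peak. It was Smad7, which encodes an inhibitory SMAD, with a peak of 10.9 ± 0.424 (SD, n = 2) at 22.3 kb. Smad1, which encodes a SMAD activated by BMP receptors, had 1 in replicate 1 alone, with 14 IP tags, 6.61 kb on its downstream side. Acvr1, a type I receptor gene, had one of 13 IP tags in replicate 2 alone, 62.2 kb away and inside Upp2. Bmp4 and Id4 had none within 100 kb.

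In the Wnt and beta-catenin list, 1 of 29 genes (3.45%, beside 2.25% of all protein-coding genes) had a shared peak. Tcf7l1 encodes the repressor that GSK3 inhibition relieves in these cells. Its shared peak of 9.53 ± 1.80 (SD, n = 2) lay 65.5 kb upstream, inside Kcmf1. Replicate 1 alone had another peak inside Tcf7l1 and one 3.19 kb downstream, of 14 and 16 IP tags. Nkd1, a feedback inhibitor gene of Wnt signalling, had a peak in replicate 1 alone (9.78 kb), and the coreceptor gene Lrp5 had one in replicate 2 alone (51.9 kb, inside Ppp6r3).

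In the FGF and ERK list, 1 of 28 genes (3.57%, beside 2.25% of all protein-coding genes) had a shared peak. It was Etv4, an ETS factor gene that ERK activity induces, and the peak was the same tall site that was nearest to Stat3, 87.5 kb from Etv4, with a height of 17.5 ± 0.707 (SD, n = 2). In the list of MYC partners and antagonists, 0 of 11 genes had a shared peak, and Mga, a MAX dimerisation partner gene, had one in replicate 2 alone, 16.6 kb upstream.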

How the data were processed

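METTL3 ChIP-seq peaks were deposited for 2 IP libraries, each called by the authors against the input of the same number. Per the file headers, the caller was HOMER findPeaks in factor style, run on each library and not on pooled replicates, with a false discovery rate of 0.001, a threshold of 14 tags for a putative peak, a Poisson p-value of 0.0001 over input and over the surrounding 10 kb, and a required fold of 1. CASAVA, Trimmomatic 0.38, Bowtie 1.2.2, HOMER and the build mm10 are named, per the submitters' processing notes, without their settings. IP libraries held 22246555 and 21793898 tags per the file headers. Input depth, worked out from how the caller scaled each file, was about 24800000 and 14900000 tags.

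Peak height is the deposited signal that the authors scaled to 10000000 tags. The deposited focus ratio is a fraction, printed here as a percent. The deposited findPeaks score, the ratio columns (fold over input and over local tags) and the p-value columns are the authors' own values per peak. The deposited total tags are a count in replicate 1, while in replicate 2 the authors scaled them to the input. In 25 peaks of replicate 1 this count differed from that behind the normalised value by at most 2 tags. At Myc they were 55 and 54, and folds and ratios of tags used 55. Whole tags were recovered to within 0.11 (IP) and 0.046 (input) of a whole number. Where input was 0, the caller put 0.5 tags in its place.

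Distances run from a peak's centre to the gene body in a RefSeq table of GRCm38.p6, the assembly of mm10, in which all 10 genes were found. Sides came from strands in a RefSeq promoter table. Coordinates are 1-based. Intervals are exact conditional binomial (tags) or Clopper-Pearson (shares) 95% intervals, and cover counting error only. Those of folds over input are no test of enrichment, since the peaks were called on it. At most 1 tag per position was counted, per the file headers. No p-value was computed. Functions were tested on simulated data, with Python 3.11.15, pandas 2.3.3 and scipy 1.17.1. Peak sequences were not analysed here.

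The 10 genes, the 5 pathway lists and the settings were chosen with earlier results of these data known. Every one of the 10 genes is named. From the pathway lists every gene with a peak within 100 kb is named, with values for those with a shared peak, except that 1 result is not reported here. Bmp4 and Id4, which have none, were named after their values were seen. Alternatives were other windows, distance from the peak edge, stricter fold and score, other overlap rules, leaving out a replicate, an added tag and the local fold.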

Additional observations from a re-analysis of the deposited data

How the results depend on the processing

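Within 10 kb, 2 genes had a peak in replicate 1 and 2 in either replicate, with 2 peaks in replicate 1. The share of all protein-coding genes within 10 kb was 1.03% in replicate 1. With a fold of at least 8 the counts were 2 genes and 2 peaks in replicate 1 and 1 gene with a shared peak. For the shared peak the share of all protein-coding genes was 1.00%. The shares for replicate 1 at that fold and for either replicate within 10 kb were not computed. Those counts are therefore not read against all genes. Within 1000 kb, added after seeing the data, 5 genes had a peak in replicate 2 and 5 a shared one. Over all protein-coding genes those shares were 22.7% and 15.8%. Of the wider pathway genes, 5, 2 and 1 (4.31%, 1.72% and 0.862%) had a peak within 20 kb in replicate 1, in replicate 2 and shared. The shares of all protein-coding genes were 1.43%, 1.15% and 0.790%, so the shared count was near that of all genes. That 1 shared gene was Tfcp2l1, known beforehand to have a peak. Within 50 kb, 4 and 3 of the wider pathway genes (3.45% and 2.59%) had a peak in replicate 2 and shared, beside 1.94% and 1.34%. Tfcp2l1 and Klf4, both known beforehand, are in each of these counts, so nothing about the pathways is drawn from them. Leaving out each replicate in turn gave 3 to 4 genes with a peak in either. With these included, 39 recomputed counts stayed within 1.5 times of those reported. All 14 folds recomputed with an added tag or over the surrounding 10 kb lay inside the exact intervals given. Those intervals are so wide that this shows little about how steady the folds are. An added tag took the Myc fold in replicate 2 from 23.9 to 12.3. The surrounding 10 kb took the Id3 fold in replicate 1 from 3.79 to 9.77. Others moved less, as at Myc in replicate 1, from 30.7 to 24.63 over the surrounding 10 kb. No paired analysis was possible because no result comes from a test; each fold is already taken within a numbered pair of IP and input. The folds rest on few input tags: the peaks near these genes held 0 to 5, and the lowest listed peaks held 12 IP tags.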
